A study of Mus musculus with 9 samples.

Results

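The genes described here build the DNA replication machinery and drive the step from G1 into S phase of the cell cycle. They were taken as 38 named genes, matched by symbol, from a list drawn up with earlier results of these data known, and 35 of them had a region at the transcription start site (TSS) among the 33844 TSS regions deposited. Mcm4, Cdc45 and Fen1 had no TSS region and were not analysed there. The assay was ATAC-seq: a transposase cuts and tags the DNA that it can reach in the nucleus, so that a high count marks accessible chromatin. The samples were heart muscle cell nuclei of CD1 mice on postnatal days 1, 14 and 56 (P1, P14 and P56), with 3 libraries per stage and no treatment named in the labels' groups. Each library pooled 12 hearts at P1 and 6 to 7 hearts at P14 and P56, and per the labels' protocols the nuclei were sorted for Pcm1, a centrosome-associated protein that marks the nuclear envelope of cardiomyocytes. The growth protocol speaks of an operation, and it is not clear from the labels that it applied to these hearts. Neither sex nor batch is labelled. The p-values given here measure the spread between pooled libraries, not between single mice.

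Replication starts at origins that are loaded with the MCM helicase during G1, a step called licensing. In late G1, cyclin E and Cdk2 release E2F transcription factors from retinoblastoma proteins, and E2F factors switch on the replication genes as a group. Mouse cardiomyocytes divide around birth, leave the cell cycle within the first weeks and keep replication genes largely silent in the adult heart. The question for these genes was whether their promoters stayed accessible across that period. RNA was not analysed here, so the silence of these genes is background and not a measurement of these libraries.

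The promoters that mark the ends of the results are shown first, as the 250 bases before the start in the RefSeq annotation of GRCm38.p6, read 5′ to 3′ on the gene's own strand. Mcm2 had the smallest p in P56 against P1 and Pola1 the most negative change, among members with a promoter sequence. Cdc6 had the most positive change, Pold1 the highest mean level and Orc6 the lowest. Capitals mark matches to E2F letters on either strand. The first form is TTCCCGC and the second is TTCGCGC. Their G-containing forms, TTGCCGC and then TTGGCGC, were searched too. The windows are chr6:88898781-88899030 on the minus strand for Mcm2, chrX:93632156-93632405 on the minus strand for Pola1, chr11:98907901-98908150 on the plus strand for Cdc6, chr7:44548816-44549065 on the minus strand for Pold1 and chr8:85299382-85299631 on the plus strand for Orc6.
Mcm2: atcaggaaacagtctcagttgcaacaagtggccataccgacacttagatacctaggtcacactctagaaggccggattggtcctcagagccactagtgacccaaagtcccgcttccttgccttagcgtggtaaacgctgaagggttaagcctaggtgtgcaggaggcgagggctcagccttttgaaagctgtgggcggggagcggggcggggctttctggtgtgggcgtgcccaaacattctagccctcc
Pola1: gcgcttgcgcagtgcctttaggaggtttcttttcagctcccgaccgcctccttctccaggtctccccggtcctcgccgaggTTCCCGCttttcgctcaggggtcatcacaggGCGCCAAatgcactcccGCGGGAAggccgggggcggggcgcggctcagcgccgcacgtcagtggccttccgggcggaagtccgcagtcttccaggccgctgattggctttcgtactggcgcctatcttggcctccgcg
Cdc6: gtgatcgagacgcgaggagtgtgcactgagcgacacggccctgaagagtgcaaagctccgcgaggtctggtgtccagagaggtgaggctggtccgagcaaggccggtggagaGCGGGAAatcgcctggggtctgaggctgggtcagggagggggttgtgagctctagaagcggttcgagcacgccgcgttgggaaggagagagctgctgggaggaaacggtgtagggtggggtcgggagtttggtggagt
Pold1: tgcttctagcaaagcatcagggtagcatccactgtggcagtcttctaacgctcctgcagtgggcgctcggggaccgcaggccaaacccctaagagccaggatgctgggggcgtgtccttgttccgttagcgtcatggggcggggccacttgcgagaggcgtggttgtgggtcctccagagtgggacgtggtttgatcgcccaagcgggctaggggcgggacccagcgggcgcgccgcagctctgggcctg
Orc6: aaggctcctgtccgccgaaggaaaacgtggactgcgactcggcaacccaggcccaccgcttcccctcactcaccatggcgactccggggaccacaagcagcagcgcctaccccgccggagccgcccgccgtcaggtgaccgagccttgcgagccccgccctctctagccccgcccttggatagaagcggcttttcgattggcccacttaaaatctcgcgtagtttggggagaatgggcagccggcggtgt
Pola1 held 3 such matches in the printed stretch, Cdc6 held 1, and Mcm2, Pold1 and Orc6 held 0 there. The starts used for Cdc6 (98908151) and Pola1 (93632155) lie inside the gene spans given below. All of the Cdc6 stretch and most of the Pola1 stretch therefore lie within the annotated gene, and another start of these genes was not searched.

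Over the whole 300-base window, from 250 bases before to 50 bases after the start, 22 of the 32 members with a promoter sequence held an E2F match (68.8%), against 10.9% of 27025 genes in the same annotation. The match of Pold1 began 39 bases after the start and so lies outside the printed stretch. The nearest match lay within 100 bases of the start in 18 of the 22 genes, 11 genes held more than 1 match, and Mcm6 held the most with 5. The letters CCAAT, on either strand, were found in 21 of the 32 members (65.6%) against 41.1% of genes, and the GC box GGGCGG in 25 (78.1%) against 38.2%. The cell cycle homology region TTTGAA was found in 6 members (18.8%) against 20.2% of genes. E2F and GC box letters can share bases, so that a stretch can count under both. A match is a run of letters and not a measured binding site.

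Depth and makeup differed between stages. P1 libraries held 1414979 to 2167369 TSS counts, P14 libraries 481217 to 893032, and P56 libraries 874639 to 1468352. The most accessible 10% of regions took 32.6% to 33.4% of the counts in P1 libraries, 34.6% to 36.0% in P14 libraries, and 35.9% to 38.6% in P56 libraries. The 16 cardiomyocyte markers summed to between 770.5 and 1563 CPM at P1, between 1151 and 1447 at P14, and between 1404 and 3315 at P56, and 8 of them were called higher by edgeR in P56 against P1. Among single libraries, P56 replicate 2 had the highest sum of these markers and P1 replicate 1 the lowest, so results are also given without both. The 12 endothelial markers summed to 591 to 710.1, 707 to 778 and 614 to 758 CPM, and the 12 fibroblast markers to 408 to 447, 397 to 463 and 382 to 421 CPM, at P1, P14 and P56. The 12 leukocyte markers summed to 263 to 325, 287 to 321 and 286 to 334 CPM, and the 12 smooth muscle and pericyte markers to 363 to 375, 412 to 465 and 452 to 531 CPM. Of these 4 lists of other cell types, edgeR called 1 smooth muscle and pericyte marker higher and 0 markers lower in P56 against P1. No marker of these lists was at 0 in any library, where every deposited row had a mean of at least 10 counts. The part of these differences in the members' values was not tested.

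Openness was first read as a rank within each library, which does not depend on how libraries are scaled. The members' TSS regions lay above the median of all TSS regions in 28 of 35 genes at P1, in 28 at P14 and in 30 at P56, judged on the mean rank over the 3 libraries of a stage. The median member stood at percentile 77.2 at P1, 77.6 at P14 and 76.4 at P56. The 75th percentile of all regions was exceeded by 21, 20 and 20 members at these stages. No member had a count of 0 in any library, but every deposited row had a mean of at least 10 counts, so this says little about openness. The 3 members without a TSS region do not enter these counts. In pooled nuclei, fewer nuclei with an open promoter and less accessibility per nucleus cannot be told apart. The median member level was 34.4, 39.8 and 38.5 CPM at P1, P14 and P56, against 18.8, 19.3 and 18.6 CPM over all regions. CPM stands here for counts scaled to a common library total after TMM scaling, which adjusts for library composition.

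Other gene lists place these ranks. Cardiomyocyte marker genes had median percentiles of 90.2, 90.7 and 94.4 at P1, P14 and P56, and housekeeping genes 82.1, 77.6 and 79.0. Olfactory receptor genes, which heart cells are not known to use, had median percentiles of 29.0, 23.7 and 19.6. The members' median lay nearer to that of the housekeeping genes than to that of the olfactory receptors at each stage. Among markers of other cell types, the endothelial list had median percentiles of 85.1, 85.2 and 82.3, above the members at each stage. The fibroblast list had 75.4, 71.9 and 61.9, below the members. The leukocyte list and the smooth muscle and pericyte list were also below the members, at no more than 60.4 and 63.4. A rank at least as high as that of the members was thus also seen for a list of endothelial markers. How many nuclei of other cell types passed the sort was not tested. Ranked among the protein-coding symbols of RefSeq alone, 23, 23 and 24 of the 35 members were above the median, and the median member stood at percentile 58.4, 60.9 and 57.8. The width of the TSS regions is not stated, so that ranks compare regions and not levels per length.

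**Figure D1:**
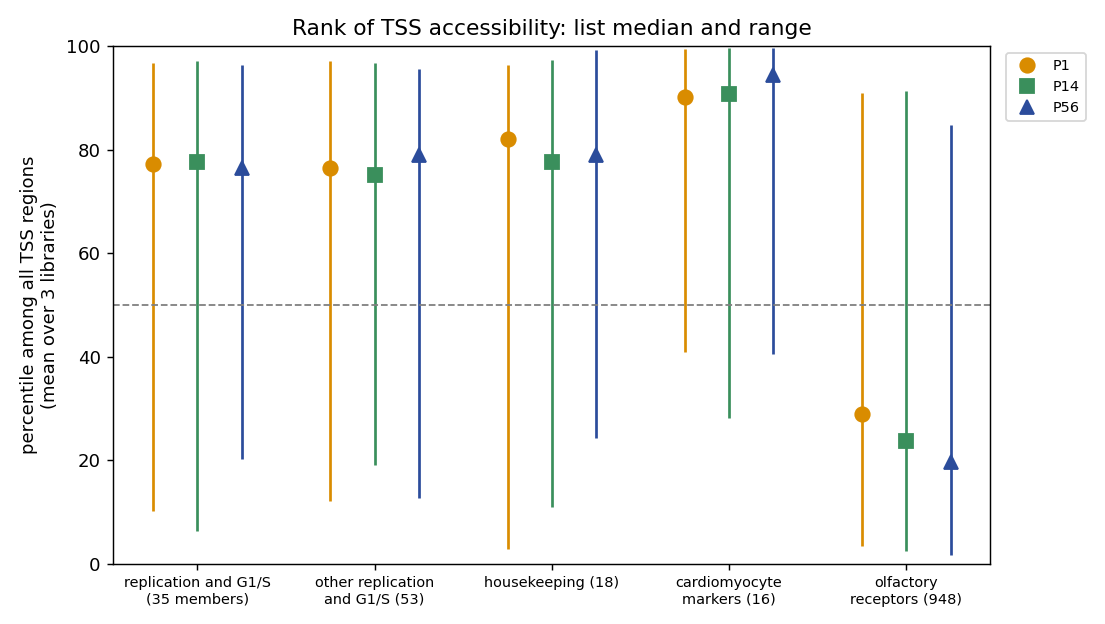
Percentile of TSS accessibility (vertical axis, among 33844 TSS regions, mean over 3 libraries) for 5 gene lists at P1, P14 and P56, with points for the list median and lines for the range over its genes. The replication and G1/S genes keep a median between 76.4 and 77.6 at all 3 stages, while the olfactory receptors lie between 19.6 and 29.0.

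In adult against newborn nuclei, no member's TSS region changed past the threshold, and most estimates lay close to no difference. With edgeR's quasi-likelihood test 0 of 35 members were called at an adjusted p below 0.05 in P56 against P1, where 2.53% of all tested TSS regions were called. DESeq2 and limma-voom also called 0 members, against 0.771% and 2.81% of all regions. At an unadjusted p below 0.05 there were 4 members (Gins2, Mcm2, Cdc6 and Rfc5), all higher at P56, while 21.6% of all regions reached that level. All regions include many with lower counts than the members, so these shares are not read as a difference. The median log2 change of the members was 0.16, a fold of 1.12, against -0.01 over all TSS regions, and 24 members had a positive and 11 a negative estimate, where 49.3% of all regions had a positive one. The 18 housekeeping genes had a median of 0.44, with 16 positive estimates and 1 called higher. The split moved with the libraries used and with the scaling. Without both P1 replicate 1 and P56 replicate 2, it was 17 positive and 17 negative among the 34 members tested, and the median was 0.0050. There edgeR called 0 members, against 2.06% of all regions. With the effective library sizes of the peak table the split was 10 positive and 25 negative, with a member median of -0.14 against -0.30 over all regions. The members lay above all regions by a similar amount with all 9 libraries under TMM scaling and under the effective library sizes of the peak table, but not in every setting. The medians of members and of all regions were -0.0038 and 0.0006 with loess offsets, and 0.016 and 0.014 with a mean count of at least 20. Without both P1 replicate 1 and P56 replicate 2 they were 0.0050 and 0.0011.

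A p above the threshold does not show that a promoter kept its level, so the 95% interval of each change was also read against a halving (a log2 change of -1). The lower bound lay above a halving in 33 of the 35 members, where the same held for 76.1% of all tested regions. The exceptions were Pola1 and Pcna, whose lower bounds were -1.28 and -1.06. The exceptions were Mcm3 and Lig1 with loess offsets, and Mcm3, Mcm7, Pola1, Pcna and Lig1 with the effective library sizes of the peak table, where 30 members met the bound. Without both P1 replicate 1 and P56 replicate 2 they were Pola1, Pcna and Cdk2, and 31 members met it. The whole interval lay between a halving and a doubling in 30 members, against 63.6% of all regions. The members' regions held a median of 46 counts per library, against 22.7 over all regions, and intervals are narrower at higher counts. All 3 P56 libraries lay above all 3 P1 libraries in 8 members, where 10.9% of all regions did, and below them in 1 member, Mcm3, where 13.2% of all regions did. The 8 were Ccna2, Pold1, E2f8, Rfc5, Mcm2, Mcm5, Cdc6 and Gins2. The members summed to between 1448 and 1625 CPM at P56, against 1368 to 1436 CPM at P1, and to between 1430.0 and 1483 CPM at P14. The 21 tested members with an E2F match had a median log2 change of 0.16 in P56 against P1, and the 9 without one had 0.14.

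**Figure D2:**
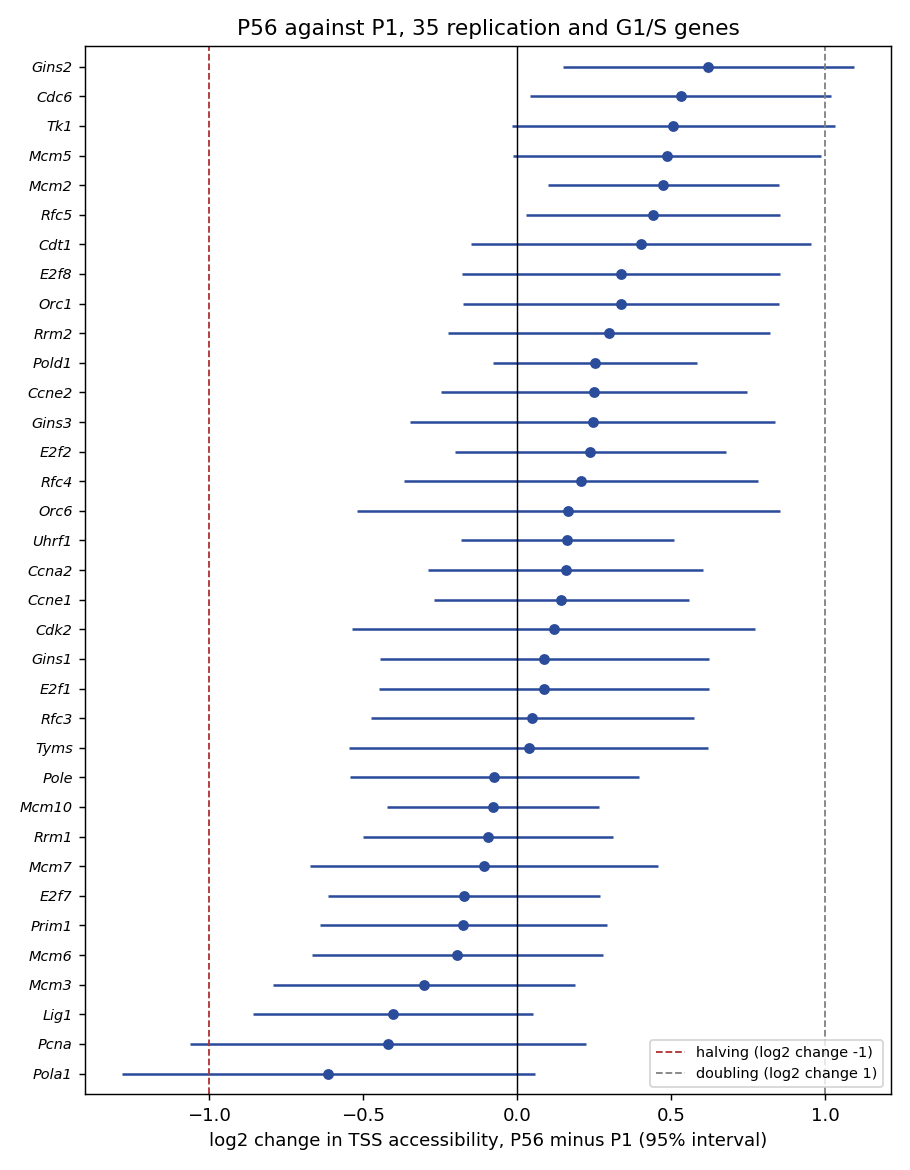
Log2 change in TSS accessibility, P56 minus P1 (horizontal axis), for each of the 35 replication and G1/S genes, with points for the estimate of the edgeR fit over 9 libraries, bars for the 95% interval and dashed lines at a halving and a doubling. The bars of Pola1 and Pcna are the ones that cross the halving line, and estimates run from -0.61 for Pola1 to 0.62 for Gins2.

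The licensing factors load the helicase onto origins. Cdc6 (ENSMUSG00000017499, chr11:98907709-98923942), the ATPase that recruits the loader, had 36.5, 36.3 and 28.9 CPM in the P1 libraries, 36.7, 19 and 34.8 CPM at P14 and 44, 52.7 and 50.1 CPM at P56. The P56 libraries lay above both other stages, whose values overlapped each other. The log2 change was 0.53 ± 0.24 (SE) in P56 against P1, a fold of 1.45, with an edgeR adjusted p of 0.193. Orc6 (ENSMUSG00000031697, chr8:85299632-85308279), a subunit of the origin recognition complex that marks where loading takes place, had 12.6, 8.91 and 8.93 CPM in the P1 libraries, 6.66, 6.33 and 8.19 CPM at P14 and 8.81, 17.3 and 6.99 CPM at P56. Its mean over the 9 libraries was the lowest among the members, and P56 overlapped P1. The group of 4 measured genes, Orc1, Orc6, Cdc6 and Cdt1, had a median log2 change of 0.37 in P56 against P1, with 4 positive estimates, of which 0 were called.

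The MCM proteins form the ring that unwinds DNA. Mcm2 (ENSMUSG00000002870, chr6:88883474-88898780), whose promoter is printed above, had 60.4, 60.3 and 59.3 CPM in the P1 libraries, 81.1, 94.9 and 69.7 CPM at P14 and 74.9, 99.3 and 74.6 CPM at P56. The P1 libraries lay close together, and every P14 and P56 library was above them. The log2 change was 0.48 ± 0.18 (SE) in P56 against P1, a fold of 1.39, with an edgeR adjusted p of 0.134. Mcm6 (ENSMUSG00000026355, chr1:128331575-128359705), another subunit of the ring, had 38.2, 52.8 and 39.4 CPM in the P1 libraries, 48.9, 48.5 and 47.1 CPM at P14 and 32.6, 42.9 and 37.3 CPM at P56. Its P56 and P1 libraries overlapped, and its P56 libraries lay below its P14 libraries. The 5 measured MCM genes had a median log2 change of -0.11 in P56 against P1, with 2 positive and 3 negative estimates.

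Mcm10 and the GINS subunits help to turn the loaded ring into a moving helicase. Mcm10 (ENSMUSG00000026669, chr2:4990724-5012791) was among the members with the highest TSS levels, at 111, 106 and 80.3 CPM in the P1 libraries, 100.0, 90.7 and 121 CPM at P14 and 94.3, 88.8 and 99 CPM at P56. The 3 stages overlapped, and its log2 change in P56 against P1 was -0.08 ± 0.17 (SE), with an edgeR adjusted p of 0.815. Gins2 (ENSMUSG00000031821, chr8:120581266-120589075) had 30.4, 41.8 and 31 CPM in the P1 libraries, 35.5, 50.6 and 47.1 CPM at P14 and 46.7, 57.9 and 52.4 CPM at P56, and every P56 library lay above every P1 library. Its log2 change was 0.62 ± 0.23 (SE), a fold of 1.54, with the smallest edgeR adjusted p of any member, 0.123. Gins3 (ENSMUSG00000031669, chr8:95633559-95645059) had 15.2, 11 and 16.3 CPM in the P1 libraries, 28.9, 14.8 and 18.4 CPM at P14 and 20.3, 18.1 and 11.7 CPM at P56, with overlap between all stages.

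Among the polymerases, the catalytic subunits of polymerase delta and alpha stood at opposite ends. Pold1 (ENSMUSG00000038644, chr7:44532744-44548815), which copies the lagging strand, had the highest mean TSS level of the members, with 93, 95.9 and 94.5 CPM in the P1 libraries, 95.5, 124 and 84 CPM at P14 and 122, 107 and 108 CPM at P56. Its P56 libraries lay above its P1 libraries, and the log2 change of 0.25 ± 0.16 (SE) had an edgeR adjusted p of 0.366. Pola1 (ENSMUSG00000006678, chrX:93304766-93632387), which extends the primers that start each fragment, had 10.4, 19.2 and 17.3 CPM in the P1 libraries, 8.89, 2.11 and 6.15 CPM at P14 and 8.81, 9.78 and 11.7 CPM at P56. Its counts were 24, 28 and 33 at P1, 8, 1 and 3 at P14 and 10, 13 and 10 at P56, so each estimate for Pola1 rests on few reads. The P56 and P1 libraries overlapped, and the log2 change of -0.61 ± 0.33 (SE) had an edgeR adjusted p of 0.276. Pola1 is on the X chromosome, and the sex of the pooled mice is not given in the labels.

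The sliding clamp, its loader and the lagging strand enzymes act behind the helicase. Pcna (ENSMUSG00000027342, chr2:132249286-132253180), the clamp itself, had 16.1, 15.8 and 12.6 CPM in the P1 libraries, 8.89, 10.5 and 6.15 CPM at P14 and 6.17, 15.8 and 10.5 CPM at P56, with overlap between P56 and P1. Its log2 change in P56 against P1 was -0.42 ± 0.32 (SE), with an edgeR adjusted p of 0.448. Rfc5 (ENSMUSG00000029363, chr5:117379145-117389023), a subunit of the clamp loader, had 49.5, 50.7 and 46.2 CPM in the P1 libraries, 46.6, 38 and 34.8 CPM at P14 and 67.8, 59.4 and 72.2 CPM at P56. The P56 libraries were above those of both other stages, with a log2 change of 0.44 ± 0.20 (SE) against P1 and an edgeR adjusted p of 0.202. Lig1 (ENSMUSG00000056394, chr7:13277175-13311426), which seals the fragments, had 63.9, 56.2 and 65.6 CPM in the P1 libraries, 83.3, 54.8 and 69.7 CPM at P14 and 66.1, 36.1 and 38.4 CPM at P56. P56 replicates 2 and 3 were the lowest of the 9 libraries while replicate 1 lay above each P1 library, and the log2 change of -0.40 ± 0.22 (SE) had an edgeR adjusted p of 0.293. Lig1 was the 1 member called under any alternative: with the effective library sizes of the peak table its log2 change was -0.68, with an edgeR adjusted p of 0.0448. That setting called 7.42% of all regions and moved their median to -0.30, so the call of 1 of 35 members is not read as a result about the members. Another gene starts on the opposite strand 105 bases from Lig1 and 99 bases from Rfc5, and ATAC-seq reads do not tell which of such genes an opening belongs to.

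Nucleotide supply enzymes make the building blocks of DNA. Rrm1 (ENSMUSG00000030978, chr7:102441695-102469771), the large subunit of ribonucleotide reductase, had 64.7, 56.2 and 72.5 CPM in the P1 libraries, 54.4, 61.2 and 55.3 CPM at P14 and 51.1, 74.5 and 54.8 CPM at P56, and its stages overlapped. Tk1 (ENSMUSG00000025574, chr11:117815519-117826087), the S-phase thymidine kinase, had 36.5, 30.2 and 29.9 CPM in the P1 libraries, 31.1, 25.3 and 45.1 CPM at P14 and 30.8, 61.7 and 44.3 CPM at P56. The highest Tk1 value was P56 replicate 2, the other P56 libraries lay within the range of the P14 libraries, and the log2 change of 0.51 had an edgeR adjusted p of 0.248 in P56 against P1. Another gene, Afmid, starts 95 bases from Tk1 on the opposite strand. Tyms (ENSMUSG00000025747, chr5:30038546-30073645), the thymidylate synthase, had 15.2, 14.4 and 24.2 CPM in the P1 libraries, 14.4, 10.5 and 4.1 CPM at P14 and 20.3, 15 and 21 CPM at P56. Its P56 libraries overlapped those of P1 and lay above those of P14.

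The G1/S regulators, E2f1, E2f2, E2f7, E2f8, Ccne1, Ccne2, Ccna2 and Cdk2, had 7 positive estimates of 8 in P56 against P1 and a median log2 change of 0.15, with 0 called. The group holds activating (E2f1, E2f2) and repressing (E2f7, E2f8) factors beside the cyclins. Ccne1 (ENSMUSG00000002068, chr7:38097984-38107490), cyclin E1, had 53.5, 66.5 and 70.4 CPM in the P1 libraries, 68.9, 52.7 and 36.9 CPM at P14 and 62.5, 76.8 and 69.9 CPM at P56. The stages overlapped, with a log2 change of 0.14 ± 0.20 (SE) and an edgeR adjusted p of 0.707. Uhrf1 (ENSMUSG00000001228, chr17:56303337-56323486), which brings the maintenance DNA methyltransferase to newly copied DNA, had 93.9, 80.9 and 77.2 CPM in the P1 libraries, 111, 116 and 113 CPM at P14 and 84.6, 85 and 115 CPM at P56. Its P14 libraries were above each P1 library, while P56 and P1 overlapped.

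**Figure D3:**
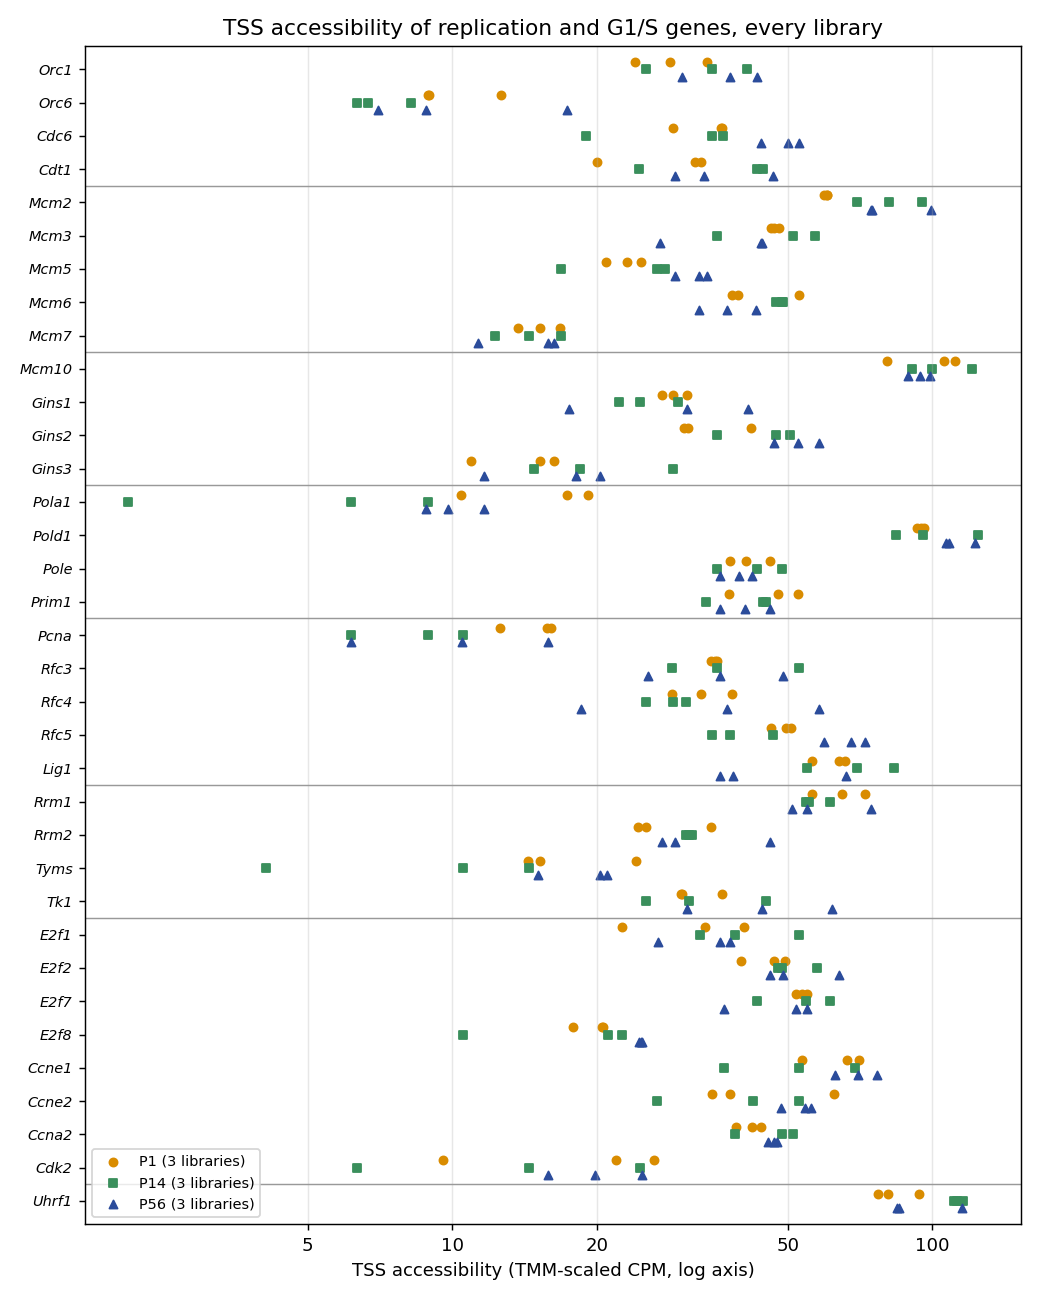
TSS accessibility in TMM-scaled CPM (horizontal log axis) of each of the 35 genes, grouped by role, with 1 point per library and 3 libraries at each of P1, P14 and P56. Levels run from 9.41 CPM for Orc6 to 103 CPM for Pold1 as means over 9 libraries, with Pold1, Mcm10 and Uhrf1 at the right and Orc6, Pola1 and Pcna at the left.

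The first 2 weeks and the step from P14 to P56 were compared as well. In P14 against P1, edgeR called 0 of 35 members, against 0.0119% of all regions, and the median log2 change was 0.01. There were 3 members at an unadjusted p below 0.05, where 8.59% of all regions were. DESeq2 and limma-voom called 0 members, and each called 0.003% of all regions. Pola1 had the lowest estimate of the comparison, -1.25 ± 0.44 (SE), a fold of 0.42, with an edgeR adjusted p of 0.495. Uhrf1 and Mcm2 were the other two, with log2 changes of 0.43 and 0.45 and edgeR adjusted p-values of 0.532 and 0.556. The P14 libraries lay above all P1 libraries in 2 members, where 9.02% of regions did, and below them in 3 members, Pola1, Pcna and Orc6, where 7.87% of regions did. Those 3 are the members with the lowest mean levels, and P14 was the shallowest stage.

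In P56 against P14, edgeR called 0 of 35 members, against 0.00296% of all regions, and the median log2 change was 0.10. The 3 members at an unadjusted p below 0.05 were Rfc5, Lig1 and Cdc6, where 10.1% of all regions reached that level. DESeq2 and limma-voom called 0 members, against 0.003% and 0% of all regions. Rfc5 had a log2 change of 0.70 and an edgeR adjusted p of 0.315. Lig1 had -0.59 with 0.415, and Cdc6 had 0.66 with 0.418. The P56 libraries lay above all P14 libraries in 5 members, where 7% of regions did, and below them in 1, Mcm6, where 6.96% of regions did. The lower bound of the interval was above a halving in 30 members in P14 against P1, where 76.4% of regions were, and in 33 in P56 against P14, where 72.6% were. These comparisons share libraries with each other and with P56 against P1.

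The deposited peak list gave a second measurement of the same libraries, since it counts reads over called regions of open chromatin. A peak lay within 1 kb of the start of 19 of the 38 members, including Mcm4 and Cdc45, and each of the 19 had its own peak. For Mcm4, Gins1, Gins2, Pole, Ccne2 and Ccna2 the start was not in the annotation used, so either end of the gene was taken. Gins1 had no peak there. Among genes with a TSS region and a known start, 43.3% of 30 members and 42.0% of 15225 genes had a peak. Even in the top 10% of those genes by TSS level the share was 60.6%, so peaks were often missing at high TSS counts. Whether the lack of a peak marks a closed promoter, or a high TSS count an open one, cannot be told from these shares. Ranked per kb of width among all peaks, 16, 12 and 11 of the 19 member peaks lay above the median at P1, P14 and P56, with median percentiles of 64.6, 56.8 and 54.6. Mcm10, Pold1, Uhrf1 and Mcm2, singled out after their values were seen, had high TSS levels and no peak within 1 kb.

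Of the 3 members with the lowest TSS levels, Orc6 and Pcna had a peak at the start and Pola1 had none within 1 kb. The Orc6 peak (chr8:85298595-85300415) had 39.5, 45.5 and 50.8 CPM at P1, 38.6, 31.1 and 66.3 CPM at P14, and 34.2, 68.8 and 56.8 CPM at P56. The Pcna peak (chr2:132252356-132253708) had 26.3, 27.7 and 41.7 CPM at P1, 19.3, 31.1 and 50.5 CPM at P14, and 28.9, 58.4 and 43.4 CPM at P56. The stages overlapped in both. The Pcna change in P56 against P1 was 0.46 in the peak (edgeR adjusted p of 0.466), against -0.42 in the TSS region, and neither was called. Where the authors placed the TSS regions is not stated, so it cannot be told whether both tables cover the same bases of these genes.

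Of the 19 member peaks 0 were called by edgeR in P56 against P1, where 0.444% of all tested peaks were, and 0 had an unadjusted p below 0.05, where 16% of all peaks did. DESeq2 called 0 in each of the 3 comparisons, and its share over all peaks is not given here. The median log2 change was 0.06, against 0.03 over all peaks, and the lower bound was above a halving in 17 of 19, against 72.2% of all peaks. The Gins2 peak (chr8:120588000-120590716) had 93.3, 123 and 90.2 CPM at P56, against 57.6, 112 and 117 CPM at P1, and these overlapped. Its log2 change was 0.11 ± 0.26 (SE), with an edgeR adjusted p of 0.850, beside 0.62 in the Gins2 TSS region. The exceptions to the bound were Mcm6 and Mcm4, with lower bounds of -1.25 and -1.01. Mcm6 had 18.4, 18.8 and 23.4 CPM at P56, against 24.7, 36.6 and 27.8 CPM at P1, and was the 1 peak with every P56 library below every P1 library, where 10.1% of all peaks were. Its log2 change was -0.56, with an edgeR adjusted p of 0.414. In P14 against P1 and in P56 against P14 edgeR called 0 member peaks, against 0.00773% of all peaks in each. In P14 against P1, 0 member peaks had an unadjusted p below 0.05, where 6.04% of all peaks did. There 14 of the 19 estimates were negative, with a median of -0.09 against -0.002 over all peaks. In P56 against P14, 16 of the 19 were positive, with a median of 0.20 against 0.02. The lower bound was above a halving in 13 and 17 of the 19 in these comparisons, and the share over all peaks is not given here. In P56 against P14, 2 member peaks had an unadjusted p below 0.05, where 14.7% of all peaks did: Mcm6 with a log2 change of -0.99 and Orc1 with 1.10, and edgeR adjusted p-values of 0.244 and 0.289. Their TSS regions had log2 changes of -0.35 and 0.08. Another gene, Prpf38a, starts 118 bases from Orc1 on the opposite strand, so the Orc1 peak can belong to either gene. Of the 32 members with a known start, 7 had another gene start within 1 kb, among them Orc1, Mcm7, Cdc45 and Lig1, whose peaks are counted here.

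**Figure D4:**
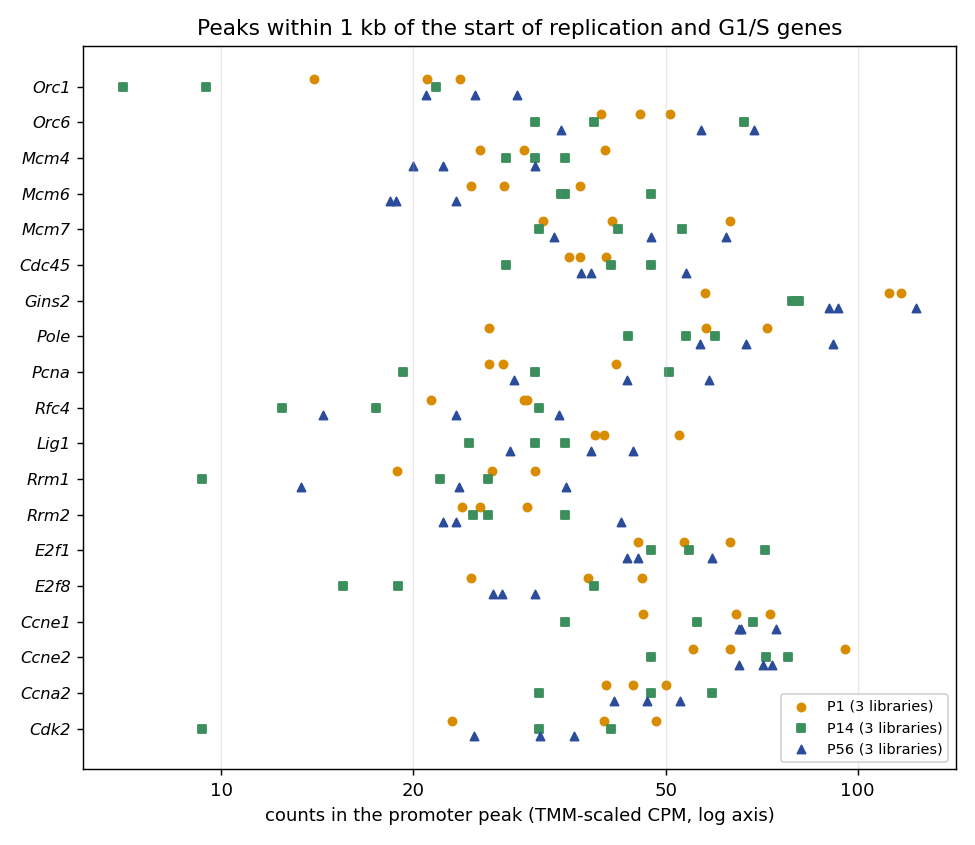
Counts in the promoter peak in TMM-scaled CPM (horizontal log axis) for the 19 replication and G1/S genes with a peak within 1 kb of the start, with 1 point per library and 3 libraries at each of P1, P14 and P56. Stages overlap in most genes, and the Mcm6 peak has its P56 libraries between 18.4 and 23.4 CPM, below those of P1.

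A longer list of replication and G1/S genes outside the 38 was read the same way, with 53 of 60 having a TSS region. In P56 against P1 edgeR called 2 of the 53 higher and 0 lower, against 1.72% and 0.806% of all regions, and the list's median log2 change was 0.18. The called genes were Pold4 (ENSMUSG00000024854, chr19:4231893-4233634), an accessory subunit of polymerase delta, and Ung (ENSMUSG00000029591, chr5:114130366-114139321), which removes uracil from DNA. Pold4 had 39.7 ± 9.86 CPM at P56 and 20.2 ± 0.883 CPM at P1 (SD, n = 3 each), a log2 change of 0.98 with an edgeR adjusted p of 0.0321. Ung had 81.7 ± 26.1 CPM at P56 and 46.4 ± 7.98 CPM at P1 (SD, n = 3 each), a log2 change of 0.83 with an edgeR adjusted p of 0.0346. P56 replicate 2 had the highest value of each gene, and without it the log2 change was 0.77 for Pold4 and 0.53 for Ung, with edgeR adjusted p-values of 0.162 and 0.221. DESeq2 called Pold4 (adjusted p of 0.0430) and not Ung (0.0579). With 1 library left out at a time, the Pold4 call held in 3 of 9 fits (without P14 replicate 2, P14 replicate 3 or P56 replicate 1) and the Ung call in 2 of 9 (without P1 replicate 3 or P56 replicate 1). In P14 against P1 edgeR called 0 of the 53, and the smallest p belonged to Atad2 and Rnaseh2a, with log2 changes of 1.03 and 0.64 and adjusted p-values of 0.448 and 0.487. In P56 against P14 it also called 0, with Nasp and Rbl2 first, at log2 changes of 0.67 and 0.68 and an adjusted p of 0.357 each. DESeq2 and limma-voom called 0 in each of these. At an unadjusted p below 0.05 there were 13 of the 53 in P56 against P1, where 21.6% of all regions were, 5 in P14 against P1, where 8.59% were, and 12 in P56 against P14, where 10.1% were.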

How the data were processed

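The authors deposited 2 tables of raw read counts for the 9 libraries, 1 per TSS region and 1 per peak, with no normalization. The build was GRCm38, and featureCounts 1.4.2, MACS 1.4.0, BWA 0.7.10 and bedtools 2.26 were among the tools used, per the submitters' processing notes, which give no role or order. The region width, read filters, strand use and how libraries were pooled to call peaks are not given in the sources used here. Every deposited row had a mean of at least 10 counts. Each table was fitted whole with edgeR 4.0.16 in R 4.3.3: TMM scaling, the default expression filter (33747 TSS regions and 25885 peaks passed), a coefficient for each stage, all 9 libraries together, and the two-sided quasi-likelihood F test with Benjamini-Hochberg adjustment over all features of a comparison and a threshold of 0.05. Errors of log2 changes are SE of that fit. Alternatives used DESeq2 1.42.0, limma-voom (limma 3.58.1), other scalings and filters, a replicate block and libraries left out.

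The members and gene lists were chosen with earlier results of these data known. Members named singly, 17 in all, were the 3 most positive and 3 most negative changes per comparison, the 3 highest and 3 lowest levels, and the best covered gene of each role. Gene positions and promoter sequences came from RefSeq for GRCm38.p6, in which 32 members had a promoter sequence. With 3 libraries against 3, a permutation test cannot go below 0.1, so none was used.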

Additional observations from a re-analysis of the deposited data

How the results depend on the processing

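Of 2181 member values recomputed under 21 alternatives for TSS regions and 17 for peaks, 0 called values reversed, since none was called, 1 was newly called and 161 uncalled estimates changed sign. The count of members called in P56 against P1 was 1 of 35 (Lig1) with the effective library sizes of the peak table, where 7.42% of all regions were called. The members' median log2 change there was -0.14 with those sizes, 0.022 with library size alone, -0.0038 with loess offsets, 0.016 with a mean count of at least 20 and 0.0050 with P1 replicate 1 and P56 replicate 2 both left out. The medians over all regions were -0.30 with the effective sizes of the peak table and -0.14 with library size alone. They were 0.0006 with loess offsets, 0.014 with a mean count of at least 20 and 0.0011 with both libraries left out. The loess offsets, the effective sizes of the peak table and the joint removal were added after seeing the data. Leaving out 1 library at a time gave a member median between 0.0565 and 0.228, called members between 0 and 0, members with the lower bound above a halving between 32 and 33, members above the rank median at P56 between 29 and 30, and called member peaks between 0 and 0. Over all TSS regions these fits called between 0.435% (without P56 replicate 2) and 4.50% (without P56 replicate 1) in P56 against P1. In their deviations from the stage means, same-numbered libraries correlated between -0.0672 and 0.202, with a median of 0.047. Libraries of different stage and number correlated between -0.255 and 0.229, with a median of -0.026. The labels do not say whether same-numbered libraries were handled together, and the numbers were not taken as pairs in the main fit. With the replicate number as a block 0 members were called and their median was 0.14. That fit called 1982 of all TSS regions (5.87%), against 853 without the block. Depth limits the low members most: Pola1 had between 1 and 33 counts per library.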
